A study of Mus musculus with 4 samples.

Results

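In mouse splenic regulatory T cells (Treg cells, a Foxp3-expressing CD4 lineage that holds immune responses in check), 9 genes of the follicular program and the Tox family were followed. They are Bcl6, Tox, Tox2, Ascl2, Pou2af1, Sh2d1a, Slamf6, Angptl2 and Il21, chosen by gene symbol, and all 9 are among the 20837 rows of the deposited count table. RNA was sequenced from 2 libraries labelled cKO, of genotype Foxp3YFP-Cre Kmt2d fl/fl, and 2 libraries labelled WT, of genotype Foxp3YFP-Cre Kmt2d+/+. Both groups therefore carry the Foxp3YFP-Cre allele, and they differ in the loxP-flanked Kmt2d alleles, which encode a histone methyltransferase. The Foxp3 locus drives the Cre recombinase, so excision is meant for cells that have expressed Foxp3. Where it took place was not tested. The labels give no age for these Treg cells and do not state whether each library is a separate mouse, and their extraction protocol is about bone marrow macrophages of another knockout. The groups follow the tissue, cell type and genotype fields, and the p-values speak only of variation among these 4 libraries, part or all of which could be technical.

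Follicular helper T cells (Tfh cells) move into B cell follicles and help germinal centre B cells, and follicular regulatory T cells (Tfr cells) are Treg cells that use the same program to enter follicles and restrain that help. Bcl6, a transcriptional repressor, is the lineage-defining factor of both, and its antagonist Prdm1 encodes Blimp-1, which marks effector Treg cells and plasma cells. Tox and Tox2 encode HMG-box nuclear proteins. Tox is needed for CD4 T cell development in the thymus and is also known from exhausted CD8 T cells, and Tox2 promotes Tfh development.

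Total counts ranged from 28442416 to 34225385 in cKO libraries and from 30737750 to 35560491 in WT libraries, so that 1 read was worth 0.0281 to 0.0352 CPM (counts scaled to the library total), and a count of 0 allows up to 0.0844 to 0.105 CPM (3 counts, counting error only). Values below are CPM scaled by TMM factors, which correct for library composition, and means carry the SD over n = 2 libraries. Kmt2d itself, counted over the whole gene, had 836 and 793 CPM in cKO libraries and 721 and 704 CPM in WT libraries (log2 fold change 0.19, SE 0.05, edgeR quasi-likelihood adjusted p = 0.0375, a call that ended without each library in turn and with RLE scaling and the replicate block). A count over the whole gene does not single out the deleted part, so it does not check the labels. Treg and pan T cell transcripts were present in every library, Foxp3 with 170 and 180 CPM in cKO libraries and 278 and 250 CPM in WT libraries. Of 11 pan T cell markers tested, 7 were lower and 0 higher in cKO libraries (edgeR quasi-likelihood test, Benjamini-Hochberg adjusted p under 0.05), with a list median log2 fold change of -0.32. The 4 that did not pass were Cd28 (-0.32), Cd3e (-0.04), Cd5 (0.008) and Cd6 (-0.0005). Of 10 Treg markers, 5 were lower, Foxp3 among them, 4 did not pass and 1, Il2ra (0.38), was higher (list median -0.37). Of 12 neutrophil markers, 12 were higher, with summed levels of 633 and 1352 CPM in cKO libraries and 73.5 and 196 CPM in WT libraries. Of 12 macrophage and monocyte markers 1 was higher, 0 were lower and 11 did not pass, with a list median log2 fold change of -0.40. Their sums were 1022 and 843 CPM in cKO libraries and 630.5 and 863 CPM in WT libraries. The 1 that was higher, Lyz2, made up much of these sums, with 584 and 544 CPM in cKO libraries and 260.5 and 286 CPM in WT libraries. In RNA from a bulk population, fewer cells of a type and less RNA per cell cannot be told apart.

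All 9 genes passed the filter on low counts, and 5 of them were lower in cKO libraries: Tox2, Angptl2, Bcl6, Sh2d1a and Slamf6. None was higher, and the other 4, Tox, Ascl2, Pou2af1 and Il21, did not pass the test. Across the transcriptome 15.1% of the 13861 genes tested were called lower, 16.5% were called higher and 31.6% were called in either direction. The median log2 fold change was -0.18 over the 9 genes, -0.32 over the 11 pan T cell markers tested and 0.0003 over all genes tested. For the same 5 genes each cKO library was lower than each WT library, and 30.9% of all genes tested had that order. Leaving out single libraries brought the count of 5 down to 3 without cKO 1, 3 without cKO 2, 4 without WT 1 and 3 without WT 2. Tox2, Angptl2 and Bcl6 were called in each of these fits, and Slamf6 in none of them.

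**Figure D1:**
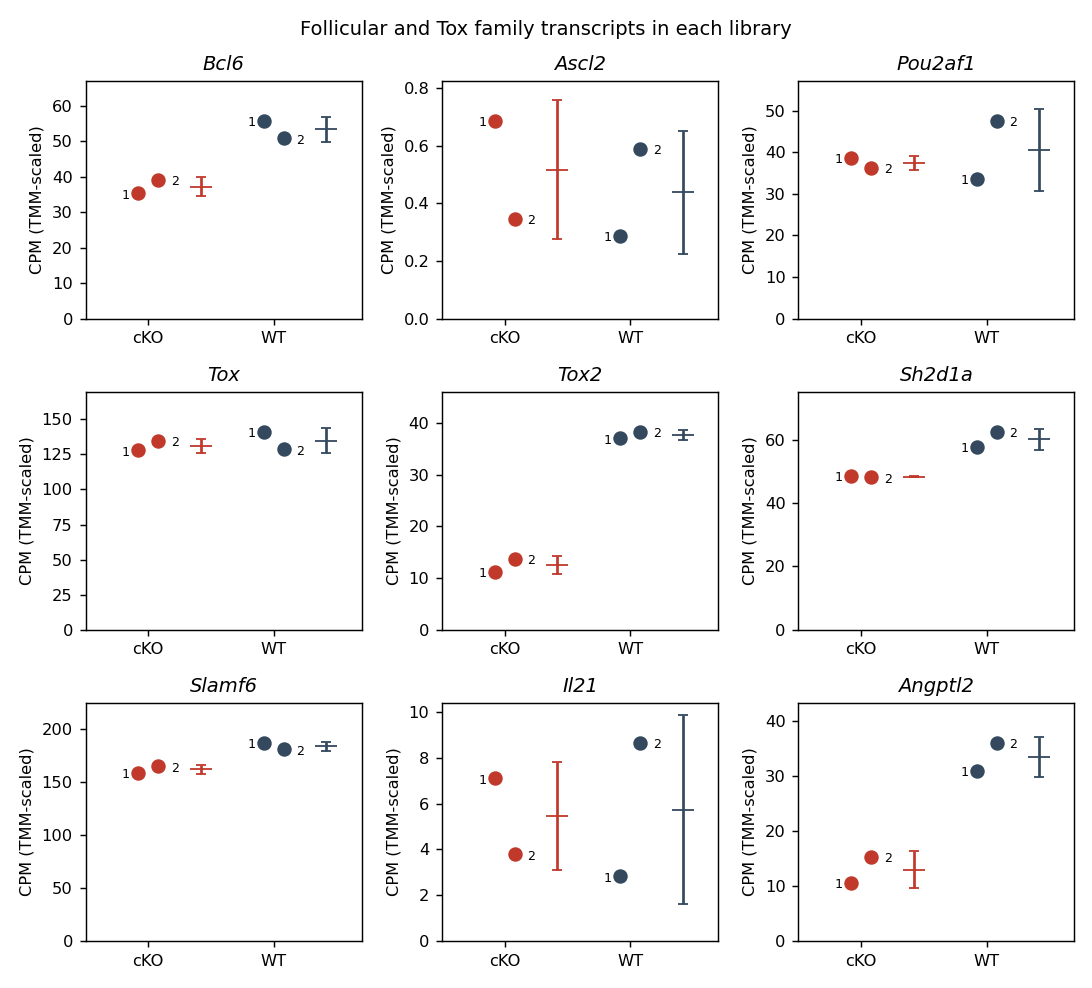
Level of each of the 9 genes in each library, in TMM-scaled CPM on axes that start at 0, with the replicate number beside each point and the mean and SD of the 2 libraries to its right. The cKO libraries lie below the WT libraries for Bcl6, Tox2, Sh2d1a, Slamf6 and Angptl2, and the groups overlap for the other 4.

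The stretches upstream of the annotated start sites of Bcl6, Tox2 and Angptl2 are shown because these 3 genes were called lower under every alternative run, and they show how different their promoters are in composition. Each is the 250 bases before a start site, read 5′ to 3′ on the gene's strand, from RefSeq's annotation of GRCm38.p6, the assembly of mm10. For Tox2 the most upstream of 5 annotated start sites was taken (chr2:163202877-163203126, plus strand), with GC boxes (GGGCGG or its reverse complement) in capitals. For Angptl2 (chr2:33215711-33215960, plus strand) capitals mark the E-box CAGCTG, a form of the motif bound by basic helix-loop-helix factors such as Ascl2, and GC boxes. For Bcl6 both annotated start sites are shown, the first at chr16:23988853-23989102 and the second, inside the gene, at chr16:23981284-23981533 (both minus strand). There capitals mark matches to TTCNNNGAA, the motif of STAT factors, and GC boxes, and the first capital stretch of the second Bcl6 sequence is also a match to TTCCTNGAA, a core of the motif that Bcl6 itself binds.
Tox2: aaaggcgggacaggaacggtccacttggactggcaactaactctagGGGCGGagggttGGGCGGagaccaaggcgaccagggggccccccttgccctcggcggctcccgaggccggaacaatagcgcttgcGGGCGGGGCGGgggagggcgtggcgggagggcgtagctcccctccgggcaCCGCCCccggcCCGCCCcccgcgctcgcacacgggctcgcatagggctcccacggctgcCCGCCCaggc
Angptl2: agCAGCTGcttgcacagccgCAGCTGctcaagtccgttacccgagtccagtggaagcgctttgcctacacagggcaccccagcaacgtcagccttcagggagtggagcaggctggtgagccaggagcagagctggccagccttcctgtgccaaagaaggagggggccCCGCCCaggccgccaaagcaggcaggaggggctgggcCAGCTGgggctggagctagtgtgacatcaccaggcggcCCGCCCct
Bcl6, first start site: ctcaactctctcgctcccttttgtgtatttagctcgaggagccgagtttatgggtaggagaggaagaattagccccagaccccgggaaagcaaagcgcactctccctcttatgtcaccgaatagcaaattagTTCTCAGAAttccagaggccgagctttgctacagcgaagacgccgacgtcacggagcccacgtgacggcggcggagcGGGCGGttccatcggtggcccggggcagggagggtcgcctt
Bcl6, second start site: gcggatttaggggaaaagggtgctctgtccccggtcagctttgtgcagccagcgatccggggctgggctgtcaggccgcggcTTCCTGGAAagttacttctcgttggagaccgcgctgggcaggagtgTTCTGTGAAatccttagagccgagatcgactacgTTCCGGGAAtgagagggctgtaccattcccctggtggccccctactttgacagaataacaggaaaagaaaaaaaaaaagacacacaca

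Of the 9 genes, 7 had an entry among the 32851 promoter windows (250 bases before to 50 after a start site), and no entry was found for Tox or Sh2d1a. The first Tox2 window holds 77.0% G and C with 38 CpG dinucleotides, the Angptl2 window 66.7% with 9, and the Bcl6 windows 62.7% with 31 and 51.7% with 14, against medians of 52.7% and 7 over all windows. Tox2 has 7 GC boxes in its first window, including a pair that overlaps, and 35.7% of all windows hold at least 1. Angptl2 has 3 copies of CAGCTG, a motif found in 16.3% of all windows and in no other window of the 9 genes. The second Bcl6 window holds 3 matches to TTCNNNGAA, present in 8.30% of all windows, and 1 of them is the match to TTCCTNGAA, present in 1.59%. Every match to TTCCTNGAA is by its letters also a match to TTCNNNGAA. The calcineurin-dependent NFAT core TGGAAA, held by 21.4% of all windows, has 2 matches in the Il21 window and 1 in the second Bcl6 window, where it overlaps TTCCTNGAA. The octamer ATGCAAAT, to which Pou2af1's partner factors bind, and the forkhead motif TGTTTAC had no match in the windows of these genes, against 1.74% and 3.65% of all windows. Both strands were searched, and the matches describe letters only. The shares count windows with at least 1 match, so they do not say how rare several copies are, nor do they allow for G and C content.

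Bcl6, the follicular lineage factor, was lower in cKO libraries. The gene (gene number 12053; mm10 chromosome 16, 23965052 to 23988852, minus strand, GENCODE M21) had 35.2 and 39.1 CPM in cKO libraries and 55.7 and 50.8 CPM in WT libraries. Both cKO libraries were the lower ones and the groups did not overlap. The means were 37.2 ± 2.75 CPM in cKO libraries and 53.3 ± 3.53 CPM in WT libraries (SD, n = 2 each). The log2 fold change of -0.52 (SE 0.08) passed the test (edgeR quasi-likelihood adjusted p = 0.00722), and adjusted p ranged from 1.63e-05 to 0.0395 over 12 alternatives. The level in cKO libraries was 0.70 of that in WT libraries.

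Within each library, the ratio of Bcl6 to Prdm1 reads was 0.767 and 0.877 in cKO libraries and 2.44 and 1.85 in WT libraries, so that Bcl6 reads outnumbered Prdm1 reads in both WT libraries and in neither cKO library. This ratio does not depend on library scaling, and it differed by -1.37 on the log2 scale. Prdm1 itself rose to 45.3 ± 0.923 CPM in cKO libraries, against 25.1 ± 3.20 CPM in WT libraries (log2 fold change 0.85, SE 0.09, edgeR quasi-likelihood adjusted p = 0.00471). Prdm1 is also a plasma cell gene, and of 9 germinal centre B and plasma cell markers tested, Prdm1 included, 4 rose and 0 fell, with summed levels of 728 and 731 CPM in cKO libraries and 478 and 568 CPM in WT libraries. Their part in the ratio was not tested. Of that list's 11 genes, Mef2b and Rgs13 had 0 counts in at least 1 library.

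The ratio of Bcl6 to Foxp3 reads was 0.208 and 0.217 in cKO libraries and 0.201 and 0.203 in WT libraries, a log2 difference of 0.07. Bcl6 was thus lower by close to the same factor as Foxp3, and both cKO ratios lay slightly above both WT ratios. The match is to Foxp3 alone, since other Treg markers moved by other amounts (Il2ra 0.38, median of 10 markers -0.37). Against the summed pan T cell markers, Bcl6 stood at 7.48 and 7.70 per 1000 in cKO libraries and 9.50 and 9.02 per 1000 in WT libraries, so the groups stayed apart on that scale too. With 2 libraries a group, the exact permutation test of any such ratio (two-sided) cannot give a p below 0.333, which is what every ratio with separate groups gave.

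**Figure D2:**
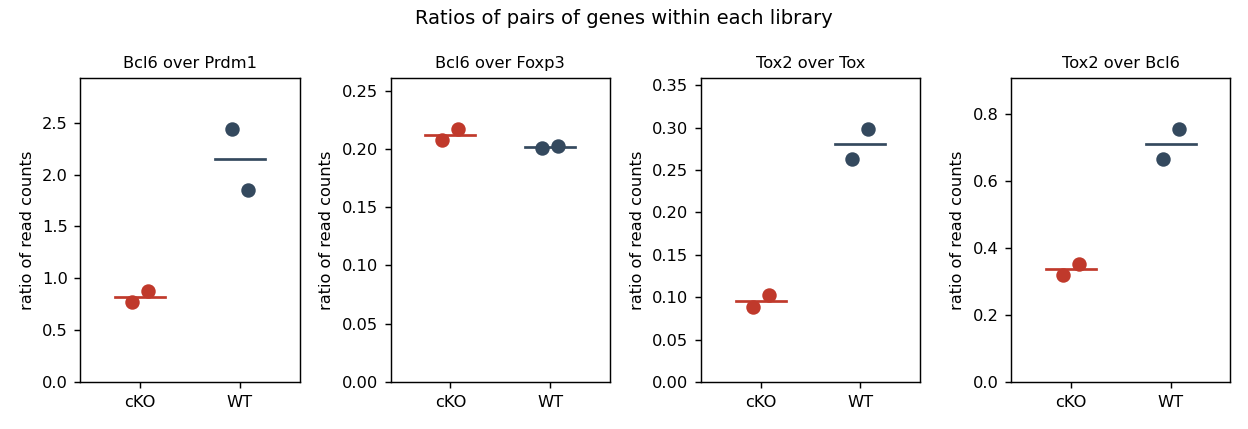
Ratios of the read counts of pairs of genes within each library, on axes that start at 0, with a line at the mean of each group. Bcl6 over Prdm1, Tox2 over Tox and Tox2 over Bcl6 are lower in both cKO libraries, while Bcl6 over Foxp3 spans 0.201 to 0.217 over all 4.

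Tox2 had the largest log2 fold change of the 9 genes in size. It had 327 and 476 reads in cKO libraries and 1286 and 1168 reads in WT libraries, or 11.2 and 13.8 CPM in cKO libraries and 37.1 and 38.3 CPM in WT libraries. The means of 12.5 ± 1.80 CPM in cKO libraries and 37.7 ± 0.902 CPM in WT libraries (SD, n = 2 each) differed (log2 fold change -1.59, SE 0.11, edgeR quasi-likelihood adjusted p = 0.00236). The lowest WT library had more than 2 times the level of the highest cKO library. With each library left out in turn the log2 fold change ranged from -1.75 to -1.46, and the call held each time. The gene lies on mm10 chromosome 2 from 163203125 to 163324170 on the plus strand (gene number 269389), and no other annotated gene overlaps it.

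Tox, its relative, did not pass the test in CPM. Tox (gene number 252838, chromosome 4, 6686353 to 6991557, minus strand) had 128 and 135 CPM in cKO libraries and 141 and 128 CPM in WT libraries. The groups overlapped, and the log2 fold change was -0.04 (SE 0.06, edgeR quasi-likelihood adjusted p = 0.734), turning to 0.031 without WT 1. Per 1000 CPM of the summed pan T cell markers, however, Tox had 27.1 and 26.5 CPM in cKO libraries and 24.0 and 22.8 CPM in WT libraries (log2 difference 0.19), so on that scale both cKO libraries lay above both WT libraries. Tox2 had 2.39 and 2.71 CPM in cKO libraries and 6.31 and 6.81 CPM in WT libraries on the same scale, still lower in cKO libraries. The ratio of Tox2 to Tox reads was 0.0880 and 0.102 in cKO libraries and 0.263 and 0.298 in WT libraries, a log2 difference of -1.56. The ratio of Tox2 to Bcl6 reads was 0.319 and 0.352 in cKO libraries and 0.665 and 0.755 in WT libraries, so Tox2 was lower also relative to Bcl6, by 1.08 on the log2 scale. Of the other Tox family genes, the broadly expressed Tox4 had 127 and 134 CPM in cKO libraries and 142 and 139 CPM in WT libraries (log2 fold change -0.11, SE 0.05, edgeR quasi-likelihood adjusted p = 0.185), and Tox3 had 1 and 0 reads in cKO libraries and 0 and 1 reads in WT libraries.

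Ascl2, a basic helix-loop-helix factor that induces Cxcr5 in Tfh cells, had few reads. The gene (gene number 17173, chromosome 7, 142966829 to 142969264, minus strand) had 20 and 12 reads in cKO libraries and 10 and 18 reads in WT libraries, which is 0.688 and 0.348 CPM in cKO libraries and 0.288 and 0.591 CPM in WT libraries. The groups overlapped (log2 fold change 0.23, SE 0.52, edgeR quasi-likelihood adjusted p = 0.808), and a difference of the size seen for Bcl6 is not detectable at this depth.

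Pou2af1 encodes OCA-B, the coactivator of octamer-binding factors that B cells and Tfh cells use. The gene (gene number 18985, chromosome 9, 51213708 to 51240080, plus strand) had 38.7 and 36.3 CPM in cKO libraries and 33.7 and 47.6 CPM in WT libraries, and the cKO libraries lay between the WT libraries. The log2 fold change was -0.12 (SE 0.16, edgeR quasi-likelihood adjusted p = 0.668), and it turned to 0.15 without WT 2. B cells, which also express Pou2af1 and Bcl6, left transcripts in every library. The summed B cell markers (14 genes in the table, none at 0 in a library) reached 266 and 417 CPM in cKO libraries and 214 and 260 CPM in WT libraries, and 4 of the 14 rose while 1, Cd72, fell. Per 1000 CPM of these markers, Pou2af1 had 145 and 87.0 CPM in cKO libraries and 157 and 183 CPM in WT libraries. The part of B cell RNA in either Pou2af1 or Bcl6 was not tested.

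Sh2d1a and Slamf6, an adaptor and a receptor of the same signalling unit, were lower by small amounts. Sh2d1a encodes SAP, through which SLAM family receptors sustain T cell contact with B cells. The gene (gene number 20400, chromosome X, 42502453 to 42529330, plus strand) had 48.6 and 48.2 CPM in cKO libraries and 57.8 and 62.6 CPM in WT libraries (means 48.4 ± 0.259 CPM in cKO and 60.2 ± 3.36 CPM in WT). The log2 fold change was -0.31 (SE 0.06, edgeR quasi-likelihood adjusted p = 0.0123). This call ended without cKO 1 (edgeR adjusted p = 0.0518), cKO 2 (0.0618) or WT 2 (0.0504).

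Slamf6, the SLAM family receptor Ly108 (gene number 30925, chromosome 1, 171917515 to 171953170, plus strand), had 159 and 165 CPM in cKO libraries and 187 and 181 CPM in WT libraries. The groups were separate but close (log2 fold change -0.18, SE 0.05, edgeR quasi-likelihood adjusted p = 0.0392). That call ended with upper-quartile scaling (edgeR adjusted p = 0.0569), with the replicate block (0.141), and without cKO 1 (0.217), cKO 2 (0.110), WT 1 (0.164) or WT 2 (0.086). Slamf6 and Sh2d1a moved little against each other, with 3.26 and 3.41 Slamf6 reads per Sh2d1a read in cKO libraries and 3.23 and 2.88 in WT libraries. Per 1000 CPM of the summed pan T cell markers, Sh2d1a had 10.3 and 9.49 CPM in cKO libraries and 9.86 and 11.1 CPM in WT libraries, and Slamf6 had 33.7 and 32.4 CPM in cKO libraries and 31.8 and 32.1 CPM in WT libraries. On that scale the groups overlapped for Sh2d1a, and for Slamf6 both cKO libraries lay above both WT libraries, the reverse of the order in CPM.

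Il21, the cytokine that Tfh cells deliver to B cells, varied more within each group than between the groups. The gene (gene number 60505, chromosome 3, 37222759 to 37232636, minus strand) had 207 and 131 reads in cKO libraries and 98 and 264 reads in WT libraries, or 7.12 and 3.79 CPM in cKO libraries and 2.82 and 8.66 CPM in WT libraries. The highest and the lowest library were both WT, and the log2 fold change (-0.07, SE 0.55, edgeR quasi-likelihood adjusted p = 0.948) ran from -0.68 without WT 1 to 0.94 without WT 2. The order within groups, WT 2 above WT 1 and cKO 1 above cKO 2, is shared by Ascl2, Pou2af1 and Sh2d1a, and by 35.8% of all genes tested.

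Angptl2, a secreted glycoprotein of the angiopoietin-like family, was the other gene with a large difference. The gene (gene number 26360, chromosome 2, 33216069 to 33247717, plus strand) had 10.6 and 15.3 CPM in cKO libraries and 30.9 and 36 CPM in WT libraries. The groups did not overlap, and cKO 2 was the higher of the cKO libraries. The means were 12.9 ± 3.32 CPM in cKO libraries and 33.4 ± 3.61 CPM in WT libraries (SD, n = 2 each; log2 fold change -1.36, SE 0.18, edgeR quasi-likelihood adjusted p = 0.00554), and the call held without each library in turn (log2 fold changes of -1.66 to -1.13). Angptl2 lies within the annotated span of Ralgps1 on the opposite strand. Ralgps1 had 522 and 614 reads in cKO libraries and 756 and 625 reads in WT libraries (log2 fold change -0.24, SE 0.07, edgeR quasi-likelihood adjusted p = 0.0535), and without information on strand, reads from shared exons cannot be told apart. Against the summed pan T cell markers Angptl2 had 2.25 and 3.01 per 1000 in cKO libraries and 5.26 and 6.40 per 1000 in WT libraries.

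**Figure D3:**
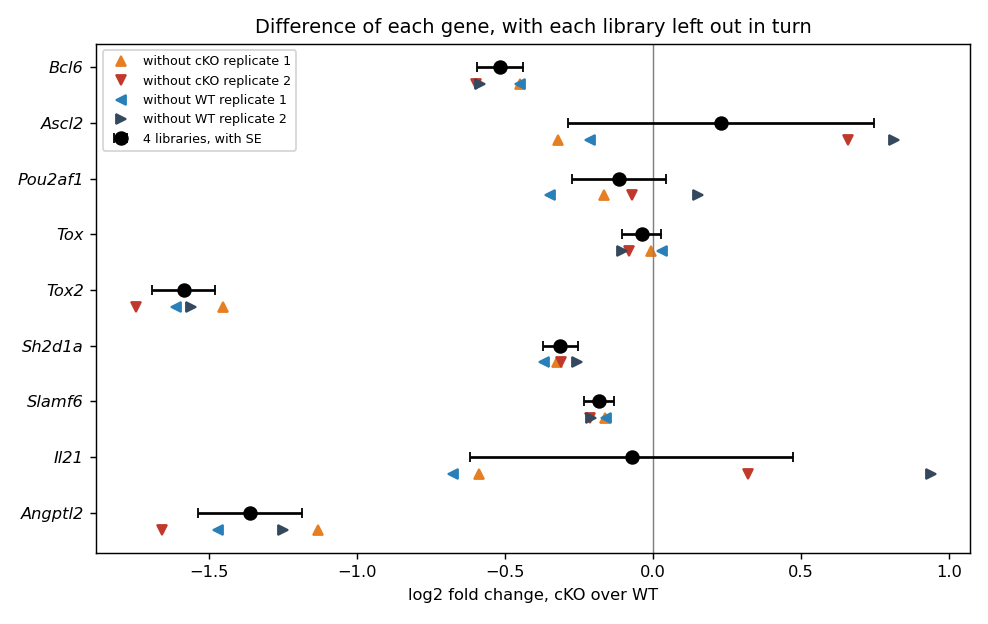
Log2 fold change (cKO over WT) of the 9 genes, as black points with the SE, and below each the value with 1 library left out. The values of Tox2 and Angptl2 stay below -1.1 whichever library is left out, and those of Il21 and Ascl2 fall on both sides of 0.

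Levels were compared between genes as CPM per kilobase of annotated exon (GENCODE M21, the union of all exons). In WT libraries the order was Tox (17.7 ± 1.17 CPM per kilobase), Slamf6 (16.9 ± 0.396), Pou2af1 (15.9 ± 3.87), Tox2 (11.1 ± 0.265), Sh2d1a (10.9 ± 0.611), Bcl6 (7.95 ± 0.526), Angptl2 (5.32 ± 0.575), Il21 (1.09 ± 0.785) and Ascl2 (0.271 ± 0.132). Within it the ranges of Tox, Slamf6 and Pou2af1 overlapped, as did those of Tox2 and Sh2d1a. In cKO libraries Tox2 (3.68 ± 0.529 CPM per kilobase) ranked below Sh2d1a (8.80 ± 0.0471) and Bcl6 (5.55 ± 0.410), with no overlap between these 3. Angptl2 (2.06 ± 0.529), Il21 (1.04 ± 0.447) and Ascl2 (0.319 ± 0.148) closed the order in cKO libraries, behind Tox (17.2 ± 0.642), Slamf6 (14.9 ± 0.392) and Pou2af1 (14.7 ± 0.671), and there Slamf6 and Pou2af1 overlapped. The exon lengths are the annotation's and may differ from the transcripts these cells use.

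Genes whose pattern over the 4 libraries was closest to that of a lowered gene were found by the Euclidean distance between log2 CPM values centred on each gene's mean. Tox2 lay closest to Igflr1, a receptor gene of the TNF receptor type (distance 0.0721), and to Eya2 (0.158). Igflr1 had 14.96 and 18.1 CPM in cKO libraries and 51.6 and 50.04 CPM in WT libraries (log2 fold change -1.61, SE 0.10, edgeR quasi-likelihood adjusted p = 0.00205), and Eya2, a transcriptional coactivator gene, had -1.49 (SE 0.14). Angptl2 was closest to Cst7, the cystatin F gene, at 18.6 and 26.5 CPM in cKO libraries and 57.7 and 62.6 CPM in WT libraries (distance 0.0881), then to the zinc finger gene Zfp449 (0.122), which had under 30 reads in every library. Bcl6 lay close to Pacs1 (0.0096), which had a log2 fold change of -0.52 (SE 0.07). For Sh2d1a the closest were Star (0.0154) and Josd2 (0.0165), and for Slamf6 Pgrmc1 (0.0069) and Ddx24 (0.0105). With 4 libraries, many genes can lie this close.

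Surface and effector genes of Tfh and Tfr cells were lower or did not pass. Among the 11 tested there were 6 that fell, 0 that rose and 5 without a call (median log2 fold change -0.59, beside -0.32 for pan T cell markers). Cxcr5, the receptor that guides cells into follicles and is induced by Ascl2, had 19.9 and 30.0 CPM in cKO libraries and 54.7 and 56.7 CPM in WT libraries (log2 fold change -1.15, SE 0.18, edgeR quasi-likelihood adjusted p = 0.00775). Gpr183, the oxysterol receptor EBI2, which positions cells at the follicle border and is lowered in mature Tfh cells, fell by 0.68 (SE 0.08), the ligand gene Cd40lg by 0.68 (SE 0.09), Tnfsf8 by 0.62 (SE 0.08), the checkpoint receptor gene Pdcd1 by 0.59 (SE 0.08) and Tigit by 0.34 (SE 0.05). The 6 that fell thus include genes that a Tfh cell raises and at least 1 that it lowers.

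Genes listed as promoting the follicular program were lower in 10 of 19 cases, higher in 2 and did not pass in 7 (median -0.26). Pan T cell markers had a median of -0.32 with 7 of 11 lower and 4 not passing, so by its median this list fell no further than theirs. The pan T cell markers did not move by 1 common amount, and the part of T cell RNA in these falls was not tested. Tcf7, the factor TCF-1, which acts upstream of Bcl6, had 634 and 710 CPM in cKO libraries and 1031 and 971 CPM in WT libraries (log2 fold change -0.57, SE 0.07, edgeR quasi-likelihood adjusted p = 0.00541). Pou2f2, the octamer factor Oct-2 that Pou2af1 coactivates, fell by 0.48 (SE 0.05), Nfatc1 by 0.59 (SE 0.06) and Nfatc2 by 0.66 (SE 0.07). Lef1, a relative of Tcf7, had a log2 fold change of 0.17 (SE 0.05). The Lef1 call ended without each library in turn and with RLE scaling, DESeq2, no filter and the replicate block.

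Among 22 genes listed here as restraining the program, 5 rose, 6 fell and 11 did not pass (median -0.01). Ezh2 was placed in this list by choice, and its role in the program was not tested. The 5 that rose were Prdm1, the Polycomb methyltransferase gene Ezh2 (log2 fold change 0.52, SE 0.07), the E protein inhibitor gene Id2 (0.46, SE 0.07), the interleukin 2 receptor gene Il2ra (0.38, SE 0.06) and Foxp1 (0.28, SE 0.05), whose call ended without cKO 1, cKO 2 or WT 2 and with the replicate block. Rora had 69.0 and 68.7 CPM in cKO libraries and 148 and 118 CPM in WT libraries (log2 fold change -0.95, SE 0.11), and Stat5a, which carries the interleukin 2 signal that opposes Bcl6, had a log2 fold change of -0.49 (SE 0.07). Id2 and Id3, inhibitors of the E proteins with which Ascl2 pairs, moved in opposite directions, Id3 with 16.5 and 17.7 CPM in cKO libraries and 23.8 and 28.4 CPM in WT libraries (log2 fold change -0.61, SE 0.11, edgeR quasi-likelihood adjusted p = 0.0104). Of the 6 tested partners and relatives of Ascl2, 2 rose, Id2 and Tcf4 (0.38, SE 0.09), 1 fell and 3 did not pass. The Tcf4 call ended without cKO 2, WT 1 or WT 2 and with DESeq2 and the replicate block. Tcf4 is also a factor of plasmacytoid dendritic cells and Id2 is high in NK and innate cells, and 7 of 12 dendritic markers and 11 of 12 CD8 T and NK markers rose. The dendritic marker Siglech had 20.4 and 19.5 CPM in cKO libraries and 4.90 and 5.68 CPM in WT libraries. Bst2 (log2 fold change 0.03, SE 0.06) and Ccr9 (0.19, SE 0.09), of the same list, did not pass. The part of these cells in the rises of Id2 and Tcf4 was not tested.

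Interleukin 6 and interleukin 21 act through STAT3 to induce Bcl6, and 8 of 12 genes of their receptors and signalling fell, 1 rose and 3 did not pass (median -0.26). That median is also no lower than the -0.32 of the pan T cell markers. Il21r, the receptor chain for the Il21 product, had 203 and 222 CPM in cKO libraries and 331 and 299.9 CPM in WT libraries (log2 fold change -0.57, SE 0.07, edgeR quasi-likelihood adjusted p = 0.00543). Socs3, a feedback inhibitor induced by STAT3, had 90.9 and 135 CPM in cKO libraries and 308 and 273 CPM in WT libraries, a log2 fold change of -1.36 (SE 0.18). Il6ra fell by 0.68 (SE 0.08) and the kinase gene Jak3 by 0.46 (SE 0.05). Stat3 fell by 0.26 (SE 0.06), a call that ended without cKO 1, cKO 2 or WT 1 and with the replicate block.

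In the SLAM and SAP family beyond Slamf6 and Sh2d1a, 15 genes were tested, of which 4 rose, 4 fell and 7 had no call (median -0.01). Slamf1, a receptor that signals through SAP, fell to 41.6 and 49.0 CPM in cKO libraries, against 83.9 and 73.6 CPM in WT libraries (log2 fold change -0.80, SE 0.10, edgeR quasi-likelihood adjusted p = 0.00543). The others that fell were the phosphatase gene Ptpn11 (-0.34, SE 0.06), the kinase gene Fyn (-0.28, SE 0.05), which SAP recruits, and Cd84 (-0.19, SE 0.05). Those calls ended without cKO 1 or WT 1 for Ptpn11 and Fyn, with the replicate block also for Fyn, and without each library in turn, with upper-quartile scaling, the filter of 5 CPM and the replicate block for Cd84. The genes that rose are known from NK cells or myeloid cells more than from follicular T cells: Cd244a (0.73, SE 0.10), Slamf7 (0.47, SE 0.07), Slamf9 (1.25, SE 0.26) and the SAP-related adaptor gene Sh2d1b1 (0.59, SE 0.17). Slamf9 and Sh2d1b1 lost their calls without each library in turn, with DESeq2 and with the replicate block. Of 12 markers of CD8 T and NK cells, 11 also rose, with summed levels of 350 and 363 CPM in cKO libraries and 191 and 231 CPM in WT libraries and none at 0 in a library. Their part in these 4 rises was not tested.

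Corepressors through which Bcl6 acts differed little, with 1 of 8 tested genes higher, 0 lower and 7 not passing (median -0.04). The 1 that rose was the demethylase gene Kdm1a (0.20, SE 0.05), a call lost without each library in turn, with DESeq2 and with the replicate block. Among genes tied to Tox in exhausted T cells, 8 of 15 fell, 2 rose and 5 did not pass (median -0.22). The pan T cell markers had a lower median, -0.32. Entpd1, the ectoenzyme CD39, fell by 0.76 (SE 0.07), while the inhibitory receptor gene Havcr2 had 18.9 and 15.5 CPM in cKO libraries and 7.61 and 8.27 CPM in WT libraries (log2 fold change 1.11, SE 0.13), and Eomes rose by 0.76 (SE 0.11). Nfatc1, Nfatc2, Tcf7, Pdcd1 and Tigit stand in this list too. Havcr2 is also found on myeloid and dendritic cells. Of 12 dendritic markers 7 rose, with summed levels of 2167 and 2088 CPM in cKO libraries and 1407 and 1565 CPM in WT libraries. Cd74 alone had 1085 and 1061 CPM of these in cKO libraries and 705 and 804 CPM in WT libraries. H2-Aa added 449 and 424 CPM in cKO libraries and 269 and 302 CPM in WT libraries. H2-Ab1 added 403 and 388 CPM in cKO libraries and 275 and 295.5 CPM in WT libraries. Cd74, H2-Aa and H2-Ab1, all among the 7 that rose, made up much of these sums. Of 12 macrophage and monocyte markers 1 rose (median -0.40), and of 12 neutrophil markers 12 rose. Eomes is itself 1 of the CD8 T and NK markers. The part of these cells was not tested.

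Among Angptl2's relatives and reported receptors none of the 6 tested fell, 3 rose and 3 had no call. Pirb, an inhibitory receptor of myeloid and B cells reported to bind Angptl2 family proteins, had 36.9 and 34.9 CPM in cKO libraries and 17.6 and 20.1 CPM in WT libraries (log2 fold change 0.93, SE 0.09, edgeR quasi-likelihood adjusted p = 0.00363). Itga5, the integrin alpha 5 chain, rose by 1.10 (SE 0.13). Angpt1 had a log2 fold change of 1.49 (SE 0.43), a call that ended without each library in turn and with RLE scaling, DESeq2, thinning and the replicate block. The summed neutrophil and B cell markers given above were higher in cKO libraries, while of 12 macrophage and monocyte markers 1 rose (median -0.40). The part of these cells in the 3 rises was not tested.

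**Figure D4:**
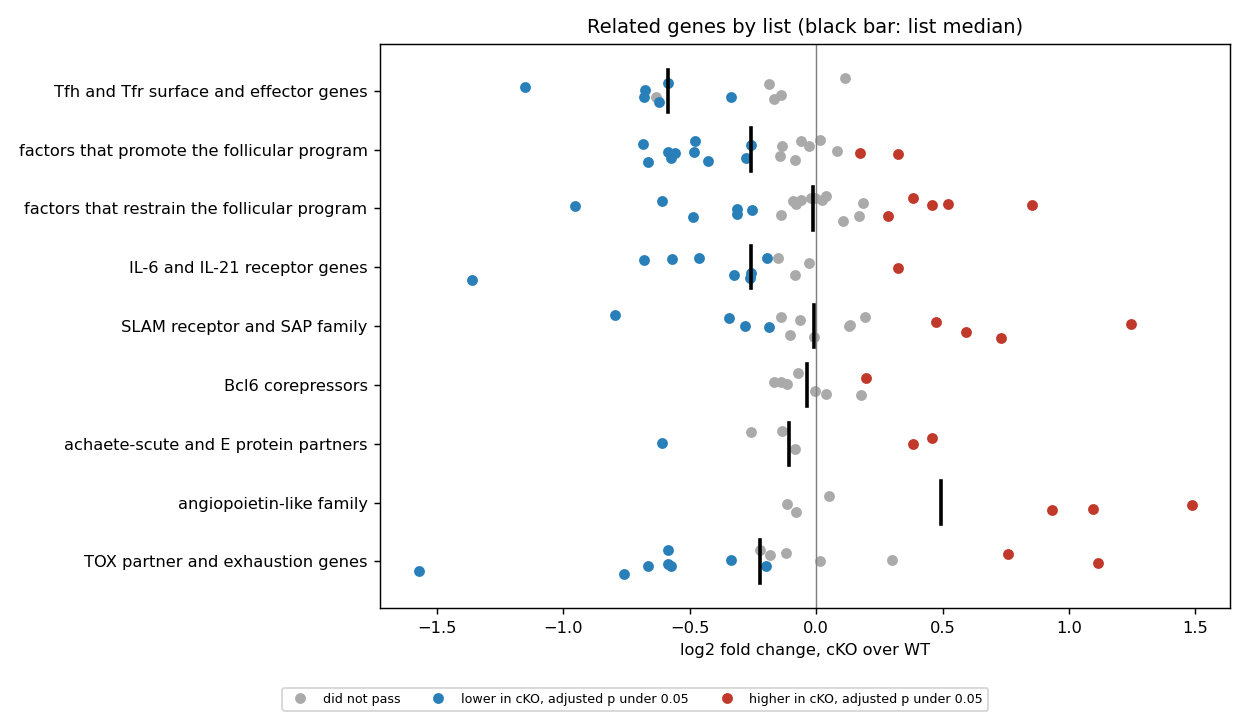
Log2 fold change (cKO over WT) of the tested genes of each related list, 1 point a gene, without the 9 followed genes and without the Tox family list, where Tox4 alone was left. Red points were called higher in cKO libraries, blue points lower, and grey points did not pass. The black bars are list medians, from -0.59 for Tfh and Tfr surface and effector genes to 0.49 for the angiopoietin-like list.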

How the data were processed

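Raw read counts per gene, as whole numbers, were deposited by the authors in 1 table for all 4 libraries. The submitters' processing notes name the build mm10. How reads were aligned, counted and assigned to a strand is not given in the sources used here. Low genes were removed by filterByExpr (count of 10, total of 15), and the rest were scaled by TMM and compared with edgeR 4.0.16 in R 4.3.3 (glmQLFit, glmQLFTest, group alone, two-sided, Benjamini-Hochberg adjustment over 13861 genes, threshold 0.05). The SE was obtained from the log2 fold change and the F statistic. Alternatives were DESeq2 1.42.0, voom in limma 3.58.1, scaling by RLE or upper quartile, other filters, thinning, a replicate block, leaving out each library and a threshold of 0.10.

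The 9 genes and all lists were chosen with earlier results of these data known. From each list up to 4 genes with the smallest p are named. The others named, to spell out a count of 5 or fewer or, for Cxcr5, Tigit, Stat3, Siglech, Bst2, Ccr9, Cd74, H2-Aa and H2-Ab1, beyond that rule, were chosen after their values were seen. Some genes that the rule would name are not reported here. Closest patterns (prior count 2) are named for the 5 lowered genes. The 7 motifs were kept after 15 were tried. Libraries of a group differed by more than sampling noise (chi-square per degree of freedom 9.51 in cKO and 10.3 in WT).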

Additional observations from a re-analysis of the deposited data

How the results depend on the processing

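The 5 calls among the 9 genes were 4 with upper-quartile scaling and with the replicate block, 5 with the other settings that keep all libraries, and 3 to 4 with 1 library left out. The count over all genes, 4380, was 2876 with DESeq2, 2292 with the replicate block and 1869 to 2747 with 1 library left out. The replicate numbers do not pair the libraries by any label, and the deviations of same-numbered libraries correlated at -0.323 across genes. A block with crossed numbers, added after the data were seen, gave 6713 genes and 5 of the 9. The replicate block ended 1 call among the 9, that of Slamf6.

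Among the 9 genes, signs turned only for the 4 that did not pass. Il21 was 0.082 with limma-voom and 0.040 with the replicate block. With 1 library left out, the log2 fold change ran from -0.68 to 0.94 for Il21, -0.11 to 0.031 for Tox, -0.32 to 0.81 for Ascl2 and -0.35 to 0.15 for Pou2af1. Of 107 alternative values for the 9 genes, 90 kept direction and side of the threshold, 9 lost the call and 8 turned sign. Of 643 values for the other named genes, 548 kept both, 94 lost the call, 1 gained one and 0 turned sign. Genes named only as cell type markers, Siglech apart, are not among these 643. With 1 library left out, the log2 difference relative to the pan T cell markers turned sign for Ascl2, Pou2af1, Sh2d1a and Il21, whose groups overlap on that scale. Depth limits Ascl2 (10 to 20 reads a library). With the filter of 5 CPM in 2 libraries Ascl2 was not tested.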
